A study of Sus scrofa with 8 samples.

Results

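The translation initiation and elongation factors of cultured pig muscle cells are described here, as the mRNA levels of 47 genes among the 25285 genes of the deposited expression table. The members were chosen by gene symbol alone, as all rows whose symbol begins with EIF or EEF followed by a digit. Of 50 such rows, 2 on the X chromosome (EIF1AX and EIF2S3) were left out by the rule, and 1 further row of EIF2AK2 gave way to the row with the higher mean, which left 47. The cells were primary cells from the skeletal muscle of pigs of the strain labelled LYD, grown in vitro, and the protocol calls them MuSCs. RNA was sequenced from differentiated and from undifferentiated cells of females and of males, with 2 libraries in each of the 4 groups and no genotype or drug treatment in the labels. The labels give neither the age of the animals nor the length of the differentiation, and none says that the replicates came from separate animals or cultures, so the p-values below reflect the spread among these libraries alone, which may be technical.

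Protein synthesis starts when the initiator tRNA, carried by eIF2, and the large scaffold eIF3 assemble on the small ribosomal subunit, and when eIF4F brings the capped end of the mRNA to it. eIF4F consists of the cap-binding protein eIF4E, the scaffold eIF4G and the RNA helicase eIF4A. Kinases that phosphorylate the alpha subunit of eIF2 lower initiation under stress, and the eIF4E-binding proteins block eIF4F until mTORC1 phosphorylates them. During elongation eEF1A delivers aminoacyl-tRNA, the other eEF1 subunits exchange its nucleotide, and eEF2 moves the ribosome along the mRNA. In skeletal muscle this machinery is known as a target of insulin, amino acids and mechanical load.

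Levels are given as FPKM, sequenced fragments per unit of transcript length and of sequencing output, a relative measure that can be set side by side between genes because it is per length. Fold changes are log2 differences of log2(FPKM + 1), differentiated over undifferentiated, averaged over the sexes unless a sex is named, and they understate the change of low genes. The limma test took in the 12963 genes whose mean level reached 1 FPKM, and a gene was called at an adjusted p under 0.05 (Benjamini-Hochberg over all 12963). How many reads lie behind the values is unknown. As multiples of the shallowest library, differentiated female replicate 1, depth was estimated at 1 to 1.63 in differentiated and 1.66 to 2.25 in undifferentiated libraries. Correlations between libraries lay between 0.931 and 0.958 within a group and between 0.74 and 0.805 across states.

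The labelled cell state was checked on marker genes. Only listed markers with a row under their symbol are counted. Of 8 listed skeletal muscle markers 7 had a row, and PAX7 had none. The summed FPKM of the 7 lay between 10477 and 15406 in differentiated libraries and between 420.0 and 737 in undifferentiated libraries, with 6 markers risen and MYOD1 fallen. All 4 proliferation markers with a row (5 listed) fell. Their sum lay between 26.8 and 74.2 FPKM in differentiated libraries, highest in male replicate 1, and between 212 and 318 in undifferentiated libraries. Markers of other cells also moved with the state. The sum of 5 fibroblast markers lay between 431 and 1127 FPKM in differentiated and between 106 and 320 in undifferentiated libraries (COL1A1 and COL3A1 rose). The sum of 6 smooth muscle and pericyte markers lay between 1131 and 1358 FPKM in differentiated and between 29.8 and 58.0 in undifferentiated libraries (ACTA2, TAGLN, CNN1 and PDGFRB rose, and MYH11 and RGS5 had means under 1 FPKM in both states). The sum of 5 immune markers lay between 2.87 and 4.30 FPKM in differentiated and between 12.099 and 17.0 in undifferentiated libraries. Most of the undifferentiated sum was CD14, which fell (mean 2.06 FPKM in differentiated and 13.4 FPKM in undifferentiated cells). CD68 averaged 0.848 and 1.11 FPKM in those states. PTPRC, CSF1R and AIF1 had means under 1 FPKM in both states, each higher in differentiated cells. Endothelial markers (4 with a row, 5 listed) summed to between 2.56 and 7.53 FPKM in differentiated and between 2.25 and 6.31 in undifferentiated libraries. Of 4 listed adipocyte markers only LEP had a row. It lay between 0 and 1.69 FPKM in differentiated libraries and was listed at 0 in undifferentiated libraries. No marker with a row was at 0 in all 8 libraries. The part of cell makeup in the changes below was not tested, and in bulk RNA fewer cells of a type and less RNA per cell cannot be told apart.

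As a group the factors were lower in differentiated cells. Their summed level was 5425, 5011, 5514 and 5215 FPKM in differentiated libraries (female replicates 1 and 2, then male replicates 1 and 2, an order kept below), against 7457, 7563, 6969 and 7397 FPKM in undifferentiated libraries. The states did not overlap, with means of 5291 ± 225 and 7347 ± 261 FPKM (SD, n = 4 each). Of the 44 members that passed the filter on low values, 21 fell and 2 rose, and 21 did not pass the test. The falls made up 47.7% of the tested members, beside 31.9% of all tested genes, and the rises 4.55%, beside 18.0% of all tested genes. All 4 differentiated libraries lay below all 4 undifferentiated libraries in 21 tested members (47.7%, beside 30.2% of all tested genes) and above them in 2 (4.55%, beside 17.1%).

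Changes of the members were smaller in size than those of all genes. The median log2 fold change of the tested members was -0.28, beside -0.18 over all tested genes, and 36 of 44 were negative (81.8%), beside 59.8% of all tested genes. Without regard to sign the median was 0.36 for the members and 0.54 for all tested genes, and 5 members (11.4%) changed by more than 1 on the log2 scale, beside 26.6% of all tested genes. Members were abundant, with a median mean level of 62.3 FPKM, 5.19 times the median over all tested genes. The shares of all tested genes thus rest on genes of mostly lower level. With a minimum mean of 5 FPKM, 22 of 42 members fell, beside 3572 of 9482 genes, and 2 rose, beside 1720.

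How many members fell depended on how libraries were scaled to each other. With median-ratio scaling, which raised the median log2 fold change of all genes by 0.18 to 0.00, 14 members fell (31.8%, beside 23.2% of all tested genes) and 4 rose (9.09%, beside 24.1%). Rises then made up 22.2% of the members called, beside 8.70% as deposited. No member was called in the opposite direction under any of 17 alternatives, and 13 of the 23 called members kept their call in all of them. These were EIF4A2 and EIF4ENIF1 among the risen, and EIF4EBP1, EIF4A1, EIF4B, EIF4G1, EIF4H, EIF3A, EIF2AK2, EIF2AK3, EIF2AK4, EIF2D and EEF1G among the fallen.

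**Figure D1:**
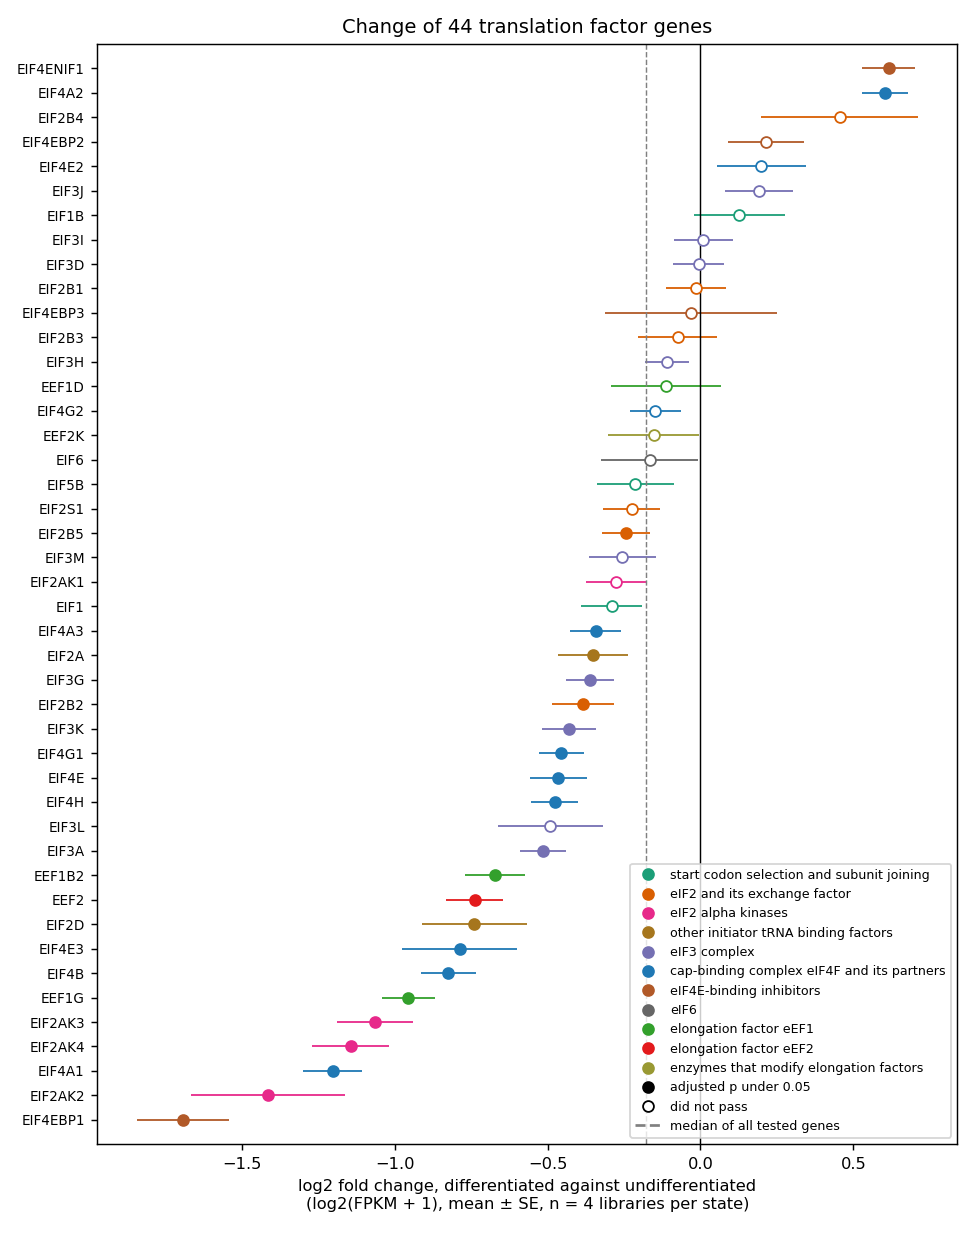
Log2 fold change (x axis, differentiated against undifferentiated, from log2(FPKM + 1)) of the 44 tested factors, ordered by size, with the standard error as a bar and the colour for the role. Filled points passed an adjusted p under 0.05 (21 fell, 2 rose), open points did not, and the dashed line is the median of all tested genes at -0.18. EIF4EBP1 stands lowest at -1.69, and EIF4A2 and EIF4ENIF1 stand highest at 0.60 and 0.62.

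The factors that select the start codon and join the subunits held no called member among 3 tested. Of all tested genes 31.9% fell and 18.0% rose. EIF1, which keeps the scanning ribosome open until it meets a start codon, was the most abundant of them at 376 ± 54.4 FPKM in differentiated cells and 457 ± 25.95 FPKM in undifferentiated cells (SD, n = 4 each), a log2 fold change of -0.29 ± 0.101 (SE) with an adjusted p of 0.0536. It was called as fallen under single choices, among them without differentiated male replicate 1 (-0.37, adjusted p = 0.0194), and over all alternatives the adjusted p lay between 0.0194 and 0.554. EIF1B, a close relative of EIF1, had a log2 fold change of 0.13 and EIF5B, the GTPase of subunit joining, one of -0.21, and the states overlapped in both. EIF5, the GTPase-activating protein of eIF2, was carried by a row on an unplaced scaffold that stayed below the filter, at 0.821, 0.733, 0.332 and 0.455 FPKM in differentiated libraries, against 0, 0.133, 0 and 0 FPKM in undifferentiated libraries. The states did not overlap, but the row was too low to say more at an unknown depth. Without the filter it was called as risen (log2 fold change 0.61, adjusted p = 0.00383). The row spans 1308 bp, and whether it covers the gene was not tested, so its low level does not show that EIF5 mRNA was scarce.

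eIF2 itself and its exchange factor eIF2B, which reloads eIF2 with GTP, held 6 members. Of these 2 fell, both subunits of eIF2B, and 4 did not pass, a share of falls near the 31.9% of all tested genes. The beta subunit of eIF2, EIF2S2, falls outside the symbol rule and is given further below. EIF2B2 had 25.5, 23.0, 25.2 and 20.6 FPKM in differentiated libraries, against 29.5, 31.6, 29.9 and 33.2 FPKM in undifferentiated libraries (log2 fold change -0.39 ± 0.101, adjusted p = 0.0214). EIF2B5, the catalytic subunit and the highest of the 6, averaged 32.1 ± 1.53 FPKM in differentiated cells and 38.2 ± 1.13 FPKM in undifferentiated cells (-0.24 ± 0.0779, adjusted p = 0.0416). Neither call was firm. With the replicate number as a block the adjusted p was 0.0580 for EIF2B2 and 0.0906 for EIF2B5, and over all alternatives it ran between 0.0164 and 0.184 for EIF2B2 and between 0.0311 and 0.681 for EIF2B5. EIF2B2 also lost its call without undifferentiated female replicate 1 or 2, undifferentiated male replicate 2, differentiated female replicate 2 or differentiated male replicate 2 (adjusted p of 0.0513, 0.0686, 0.0678, 0.0644 and 0.0506 in that order). EIF2B5 lost its call without any 1 library other than differentiated female replicate 1 (adjusted p between 0.0684 and 0.115). EIF2S1, the alpha subunit that the stress kinases phosphorylate, averaged 17.3 ± 1.28 FPKM in differentiated cells and 20.4 ± 0.865 FPKM in undifferentiated cells, which did not overlap but did not pass (-0.23, adjusted p = 0.0872). EIF2B4 had the largest positive value of the 6, 0.46 ± 0.257, with overlapping states and an adjusted p of 0.189.

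The kinases of eIF2 alpha had the lowest median of any role with more than 2 members, a log2 fold change of -1.10, and 3 of 4 fell, beside 31.9% of all tested genes. EIF2AK3 (PERK), the kinase of the endoplasmic reticulum stress response, had 6.13, 5.51, 6.09 and 7.07 FPKM in differentiated libraries, against 17.0, 13.8, 14.3 and 11.5 FPKM in undifferentiated libraries. The highest differentiated library thus lay below the lowest undifferentiated one, and the log2 fold change was -1.06 ± 0.124 (adjusted p = 0.00101). EIF2AK4 (GCN2), which senses uncharged tRNA, had 15.5, 17.3, 17.3 and 21.8 FPKM in differentiated libraries, against 34.4, 41.7, 39.5 and 48.0 FPKM in undifferentiated libraries. Its states did not overlap either (-1.14 ± 0.127, adjusted p = 0.000841), and its row spans 2552 bp of the genome, so the level rests on a short stretch of annotation.

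EIF2AK2 (PKR), the kinase that double-stranded RNA activates and that interferon induces, had 14.3, 6.90, 10.8 and 12.6 FPKM in differentiated libraries, against 39.9, 28.8, 32.8 and 22.8 FPKM in undifferentiated libraries. The states were apart although libraries of the same state differed widely (-1.41 ± 0.252, adjusted p = 0.00504). A second row of the symbol overlaps it on the opposite strand, and reads could have been split between them. That row averaged 4.24 ± 1.66 FPKM in differentiated cells and 13.6 ± 3.29 FPKM in undifferentiated cells (-1.50 ± 0.214, adjusted p = 0.00214). EIF2AK1 (HRI), the heme-regulated kinase, averaged 26.7 ± 0.955 FPKM in differentiated cells and 32.7 ± 3.82 FPKM in undifferentiated cells and did not pass (-0.28 ± 0.0978, adjusted p = 0.0571). It was called as fallen with a minimum of 5 FPKM (adjusted p = 0.0459) and without undifferentiated male replicate 2 (-0.36, adjusted p = 0.0299), in a range over all alternatives of 0.0299 to 0.538. The 4 kinases summed to 62.0 ± 4.38 FPKM in differentiated cells and 119 ± 6.89 FPKM in undifferentiated cells (SD, n = 4 each).

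Both other factors that bind initiator tRNA fell, beside 31.9% of all tested genes. EIF2D, which can place tRNA on the ribosome without eIF2, had 9.45, 5.52, 6.19 and 7.67 FPKM in differentiated libraries, against 13.8, 14.6, 10.45 and 11.5 FPKM in undifferentiated libraries, with no overlap (-0.74 ± 0.171, adjusted p = 0.0134). EIF2A averaged 55.4 ± 8.63 FPKM in differentiated cells and 70.7 ± 8.19 FPKM in undifferentiated cells, and the states overlapped (-0.35 ± 0.115, adjusted p = 0.0454). Its call was lost with the replicate block (adjusted p = 0.0922) and without any 1 library other than undifferentiated male replicate 1 (adjusted p between 0.0530 and 0.130), and over all alternatives the adjusted p ran between 0.0340 and 0.341.

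Of the 9 members that are subunits of eIF3, the scaffold that holds the small subunit ready for mRNA, 3 fell and 6 did not pass. That share of falls was near the 31.9% of all tested genes. The symbol rule did not take in every subunit, and EIF3E is given further below. EIF3A, its largest subunit, had 84.9, 80.0, 77.6 and 83.0 FPKM in differentiated libraries, against 122, 114, 115 and 117 FPKM in undifferentiated libraries. Both states were tight and apart (-0.51 ± 0.0749, adjusted p = 0.00230). EIF3K averaged 205 ± 19.6 FPKM in differentiated cells and 277 ± 18.5 FPKM in undifferentiated cells (-0.43 ± 0.0880, adjusted p = 0.00854), and EIF3G, which contacts eIF4B in yeast, averaged 59.5 ± 3.92 and 76.8 ± 5.82 FPKM in differentiated and undifferentiated cells (-0.36 ± 0.0793, adjusted p = 0.0110). Median-ratio scaling ended the calls of EIF3K (-0.22, adjusted p = 0.0835, range over all alternatives 0.00382 to 0.0835) and EIF3G (-0.15, adjusted p = 0.208, range 0.00804 to 0.208).

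The other 6 eIF3 members did not pass. EIF3D, which can bind the cap of some mRNAs, averaged 153 ± 21.1 FPKM in differentiated cells and 153 ± 7.49 FPKM in undifferentiated cells (log2 fold change -0.01 ± 0.0829), and EIF3I averaged 220.1 ± 20.7 FPKM in differentiated cells and 218 ± 9.26 FPKM in undifferentiated cells (0.01 ± 0.0978). EIF3L had the largest negative value of those not called, -0.49 ± 0.171 (adjusted p = 0.0544), and passed with the replicate block (adjusted p = 0.0192) and without differentiated female replicate 1 (-0.66, adjusted p = 0.0127, range over all alternatives 0.0127 to 0.184). EIF3J, a loosely bound subunit, had the largest positive value, 0.19 ± 0.112 (adjusted p = 0.202), and was called as risen under median-ratio scaling (0.39, adjusted p = 0.0200, range 0.0200 to 0.433) and quantile normalization (0.37, adjusted p = 0.0236). It was the lowest of the 9 in all 8 libraries, and the ratio of the highest to the lowest subunit was 11.6, 11.9, 10.7 and 11.3 in differentiated libraries, against 19.8, 16.5, 13.3 and 16.9 in undifferentiated libraries. The states did not overlap in this spread of levels among the 9 members, and the spread was not tested.

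**Figure D2:**
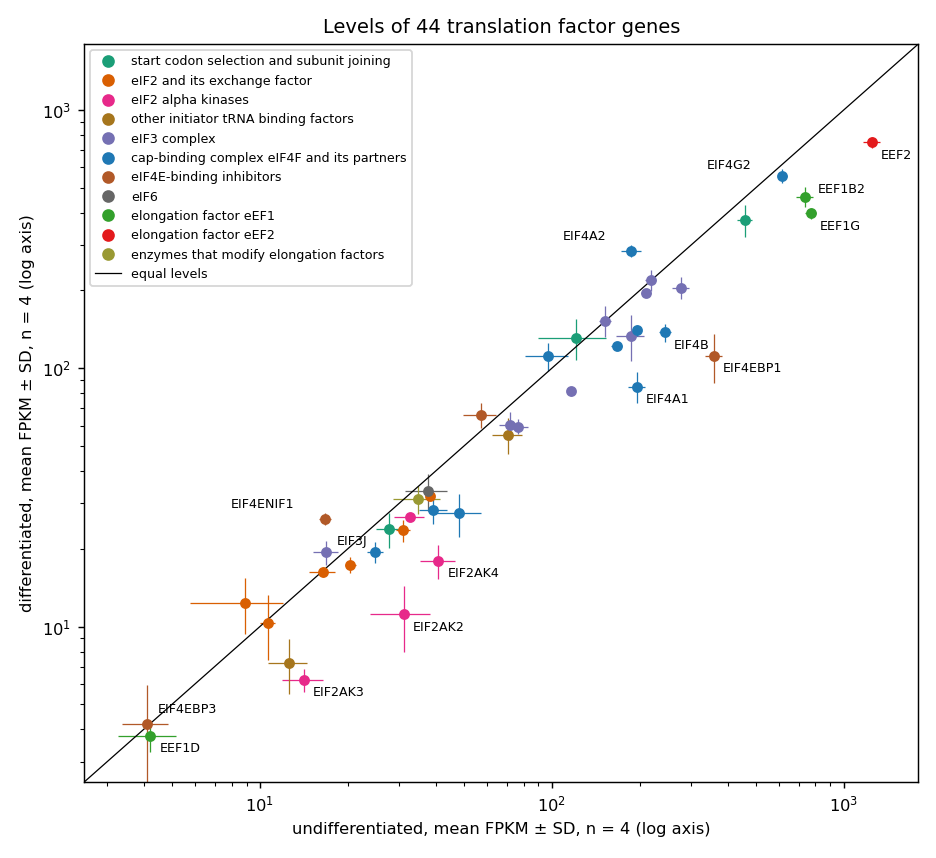
Mean level of the 44 tested factors in differentiated cells (y axis) against undifferentiated cells (x axis), in FPKM on log axes, with the SD over 4 libraries as bars and the colour for the role. Points under the line are lower in differentiated cells. EIF4A2, at 284 FPKM in differentiated and 187 FPKM in undifferentiated cells, lies above the line, and EIF4EBP1, at 112 and 359 FPKM in those states, lies farthest below it.

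In the group of eIF4F and its partners 7 of 10 tested members fell, beside 31.9% of all tested genes, and 1 rose, beside 18.0%. The group is wider than eIF4F and also counts EIF4A3, EIF4G2 and EIF4E2. Both major forms of the eIF4A helicase, which unwinds the leader of the mRNA, were called in opposite directions. EIF4A1 (chromosome 12, 55300310 to 55305775, minus strand, build Sscrofa10.2) had 78.3, 76.6, 102 and 83.4 FPKM in differentiated libraries, against 214, 190, 195 and 184 FPKM in undifferentiated libraries. No library of either state came near the other state, and the log2 fold change was -1.20 ± 0.0965 (adjusted p = 0.000290). EIF4A2 (chromosome 13, 133973437 to 133979671, plus strand) had 305, 279.6, 271 and 282 FPKM in differentiated libraries, against 171, 179, 200.4 and 198 FPKM in undifferentiated libraries. Here every differentiated library lay above every undifferentiated one (0.60 ± 0.0758, adjusted p = 0.00135). EIF4A3, the related helicase of the exon junction complex, averaged 19.4 ± 1.78 FPKM in differentiated cells and 24.8 ± 1.53 FPKM in undifferentiated cells (-0.34 ± 0.0831, adjusted p = 0.0162). That call was lost without undifferentiated female replicate 2 (adjusted p = 0.0538) or undifferentiated male replicate 2 (adjusted p = 0.0528), and the range over all alternatives reached 0.208.

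The balance of the paralogs was also compared within each library, where scaling between libraries cancels. The ratio of EIF4A2 to EIF4A1 was 3.89, 3.65, 2.67 and 3.38 in differentiated libraries, against 0.798, 0.942, 1.03 and 1.08 in undifferentiated libraries. Undifferentiated cells thus held about equal levels per length, while differentiated cells held more EIF4A2 in 4 of 4 libraries. The mean log2 ratio was 1.75 ± 0.238 in differentiated cells and -0.07 ± 0.189 in undifferentiated cells (SD, n = 4 each), a difference of 1.82 with p = 0.0286 in a two-sided exact permutation test, the smallest p that 4 against 4 libraries allow (also 0.0286 adjusted over the 2 ratios that could be formed). With the libraries paired by sex and replicate number, the exact sign-flip test found a difference as large in 2 of 16 sign changes, the fewest that 4 pairs allow, so that it could not pass 0.05.

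EIF4B, EIF4H and EIF4G1, which work with eIF4A, each fell. EIF4B, its cofactor, averaged 138 ± 11.1 FPKM in differentiated cells and 244 ± 11.5 FPKM in undifferentiated cells (-0.82 ± 0.0897, adjusted p = 0.000797), on a row that spans 1152 bp. EIF4H, which acts like EIF4B, averaged 141 ± 6.82 FPKM in differentiated cells and 196 ± 6.64 FPKM in undifferentiated cells (-0.48 ± 0.0775, adjusted p = 0.00354). The scaffold EIF4G1 averaged 122 ± 3.17 FPKM in differentiated cells and 167 ± 6.99 FPKM in undifferentiated cells (-0.45 ± 0.0733, adjusted p = 0.00343).

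EIF4G2 (DAP5), a scaffold without a binding site for eIF4E and the most abundant member of the group, averaged 556 ± 35.4 FPKM in differentiated cells and 616 ± 21.9 FPKM in undifferentiated cells, and the states overlapped (-0.15 ± 0.0833, adjusted p = 0.186). Among the cap-binding proteins, EIF4E averaged 28.2 ± 3.38 FPKM in differentiated cells and 39.3 ± 4.34 FPKM in undifferentiated cells (-0.46 ± 0.0942, adjusted p = 0.00827, and 0.0530 with median-ratio scaling, in a range of 0.00623 to 0.0530). EIF4E3 had 33.9, 25.3, 28.7 and 21.9 FPKM in differentiated libraries, against 59.9, 37.6, 46.5 and 48.3 FPKM in undifferentiated libraries. The states did not overlap (-0.79 ± 0.188, adjusted p = 0.0152), but the call was lost without differentiated female replicate 2 (-0.68, adjusted p = 0.0520, range over all alternatives 0.00890 to 0.0520). EIF4E2 (4EHP), which binds the cap but does not bind eIF4G, averaged 111 ± 13.9 FPKM in differentiated cells and 97.1 ± 16.2 FPKM in undifferentiated cells and did not pass (0.20 ± 0.144, adjusted p = 0.292). EIF4E1B, the form known from oocytes, was listed at 0 in all 8 libraries.

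Of the 4 inhibitors that bind eIF4E, 1 fell, beside 31.9% of all tested genes, 1 rose, beside 18.0%, and 2 did not pass. EIF4EBP1 (4E-BP1, chromosome 15, 55557785 to 55560890, minus strand) had 104, 99.4, 148 and 96.3 FPKM in differentiated libraries, against 357, 361, 330 and 389 FPKM in undifferentiated libraries. Every differentiated library lay far below every undifferentiated one, with male replicate 1 standing apart among the differentiated. The log2 fold change of -1.69 ± 0.150 (adjusted p = 0.000404) had the largest size of all 44 tested members, and it was -1.85 without that library (adjusted p = 0.000489, range over all alternatives 9.94e-05 to 0.00383). In the order of member levels EIF4EBP1 stood 16th in differentiated cells and 6th in undifferentiated cells. EIF4EBP2, its close relative, averaged 66.2 ± 7.38 FPKM in differentiated cells and 57.0 ± 7.37 FPKM in undifferentiated cells and did not pass (0.21, adjusted p = 0.202), but it was called as risen with median-ratio scaling (0.42, adjusted p = 0.0223, range 0.0223 to 0.451). EIF4EBP3 was low and without a difference that passed (-0.03 ± 0.281), at 4.19 ± 1.75 FPKM in differentiated cells and 4.10 ± 0.737 FPKM in undifferentiated cells.

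Within libraries the ratio of EIF4EBP2 to EIF4EBP1 was 0.714, 0.571, 0.467 and 0.672 in differentiated libraries, against 0.185, 0.155, 0.174 and 0.124 in undifferentiated libraries. EIF4EBP1 stayed the more abundant of the pair in all 8 libraries, with the gap narrower in each differentiated one. The mean log2 ratio was -0.74 ± 0.275 in differentiated cells and -2.66 ± 0.256 in undifferentiated cells (SD, n = 4 each), a difference of 1.92 (two-sided exact permutation p = 0.0286, the smallest possible, and 2 of 16 sign changes over pairs, also the fewest possible). EIF4ENIF1 (4E-T), which carries eIF4E into the nucleus and represses bound mRNAs, had 25.7, 26.9, 27.4 and 24.4 FPKM in differentiated libraries, against 17.7, 15.8, 16.6 and 16.6 FPKM in undifferentiated libraries. The states were apart, and the rise of 0.62 ± 0.0857 (adjusted p = 0.00195) had the largest size among the members that rose.

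**Figure D3:**
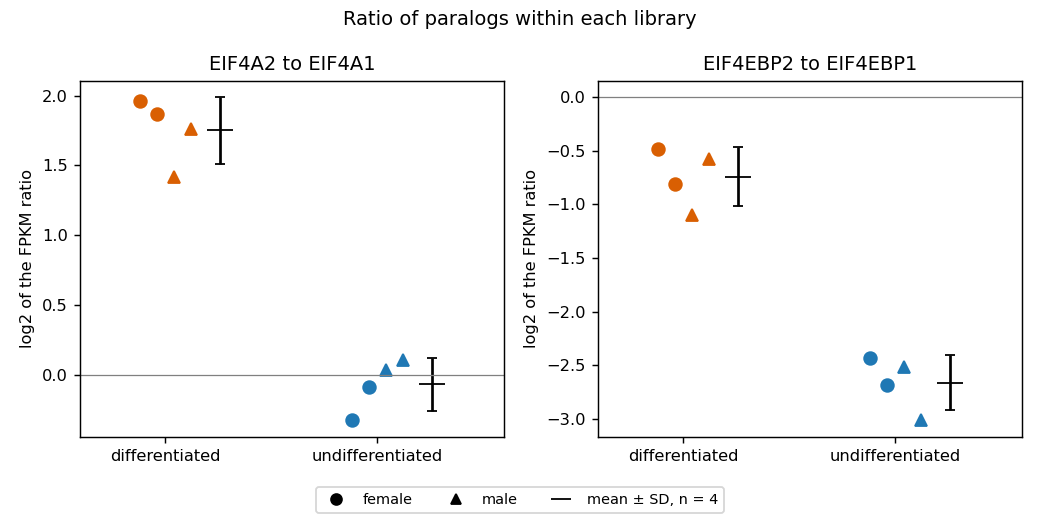
Log2 of the FPKM ratio of EIF4A2 to EIF4A1 (left) and of EIF4EBP2 to EIF4EBP1 (right) in each library (y axis), for differentiated and undifferentiated cells (x axis), with circles for females, triangles for males and the mean ± SD over 4 libraries as bars. The states do not overlap in either panel, with differences of 1.82 and 1.92.

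The ribosome factor EIF6, which keeps the large subunit from joining too early, averaged 33.4 ± 5.40 FPKM in differentiated cells and 37.6 ± 6.23 FPKM in undifferentiated cells and did not pass (-0.17 ± 0.158, adjusted p = 0.417).

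Of the 4 tested elongation factors 3 fell, beside 31.9% of all tested genes. These were EEF2, EEF1G and EEF1B2, which were also among the 4 members with the highest mean levels. EEF2, the translocase and the highest member in both states, had 802, 728, 717 and 748 FPKM in differentiated libraries, against 1281, 1328, 1134 and 1262 FPKM in undifferentiated libraries. The states did not overlap (-0.74 ± 0.0929, adjusted p = 0.00136), but quantile normalization of the log2 values ended the call (-0.20, adjusted p = 0.472, range over all alternatives 0.000233 to 0.472). EEF1G, a structural subunit of the exchange complex, had 379, 399, 426 and 386 FPKM in differentiated libraries, against 747, 801, 739.7 and 797 FPKM in undifferentiated libraries. It was about as tight within each state as EEF2 and fell further (-0.95 ± 0.0873, adjusted p = 0.000448). EEF1B2, the subunit that exchanges the nucleotide of eEF1A, had 478, 401, 488 and 478 FPKM in differentiated libraries, against 729, 795, 675 and 738 FPKM in undifferentiated libraries. These did not overlap either (-0.67 ± 0.0985, adjusted p = 0.00236), and quantile normalization again ended the call (-0.37, adjusted p = 0.106, range 0.000635 to 0.106). EEF2K, the kinase that inactivates eEF2, averaged 31.1 ± 3.94 FPKM in differentiated cells and 34.9 ± 6.37 FPKM in undifferentiated cells and did not pass (-0.15 ± 0.148, adjusted p = 0.425).

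The comparison of EEF1A2, the eEF1A form of adult muscle and neurons, with EEF1A1, the widely expressed form, could not be made as a ratio. The EEF1A2 row (chromosome 13, 804554 to 805423, minus strand) spans 870 bp and was listed at 0 in all 8 libraries. Whether so short a row covers the gene was not tested, so the 0 does not show that EEF1A2 mRNA was absent. No member carries the symbol EEF1A1. A row with the symbol EF1ALPHA (ENSSSCG00000004489, chromosome 1, 103474791 to 103477893, plus strand), which the table describes as EEF1A1, falls outside the symbol rule and is given for this comparison. It had 3119, 2736, 3104 and 2976 FPKM in differentiated libraries, against 5983, 6407, 5899 and 6191 FPKM in undifferentiated libraries. Its level was above that of EEF2 in all 8 libraries, and it fell by 1.04 ± 0.118 on the log2 scale (adjusted p = 0.000942), with no overlap between the states. EEF1D, another subunit of the exchange complex, was carried among the members by a scaffold row at 3.78 ± 0.516 FPKM in differentiated cells and 4.22 ± 0.960 FPKM in undifferentiated cells (-0.11, not passed). A row on chromosome 4 that an Ensembl identifier table names EEF1D had 89.3 ± 8.14 FPKM in differentiated cells and 164 ± 4.24 FPKM in undifferentiated cells and fell (-0.87 ± 0.0923, adjusted p = 0.000724), so the member row stands for a small share of the signal under that name.

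Further rows named as translation factors only in that identifier table or in the description column were looked at after the data were seen. EIF3E, a subunit of eIF3, fell (118 ± 9.74 FPKM in differentiated and 206 ± 26.1 FPKM in undifferentiated cells, -0.79, adjusted p = 0.00250), as did EIF2S2, the beta subunit of eIF2 (27.6 ± 6.44 and 44.8 ± 3.66 FPKM in those states, -0.70, adjusted p = 0.00813). EEF1E1, a scaffold protein of the tRNA synthetase complex, fell too (-0.61, adjusted p = 0.00671), and so did EIF1AD (-0.52, adjusted p = 0.0384). EIF4G3, the second scaffold of eIF4F, averaged 49.4 ± 4.66 FPKM in differentiated cells and 51.5 ± 2.81 FPKM in undifferentiated cells and did not pass (-0.06, adjusted p = 0.614). With all 7 such rows, the chromosome 4 row taking the place of the scaffold row of EEF1D, 27 of 50 tested genes fell, beside 31.9% of all tested genes, and 2 rose, beside 18.0%. The further rows were chosen with the data seen and add no independent support.

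**Figure D4:**
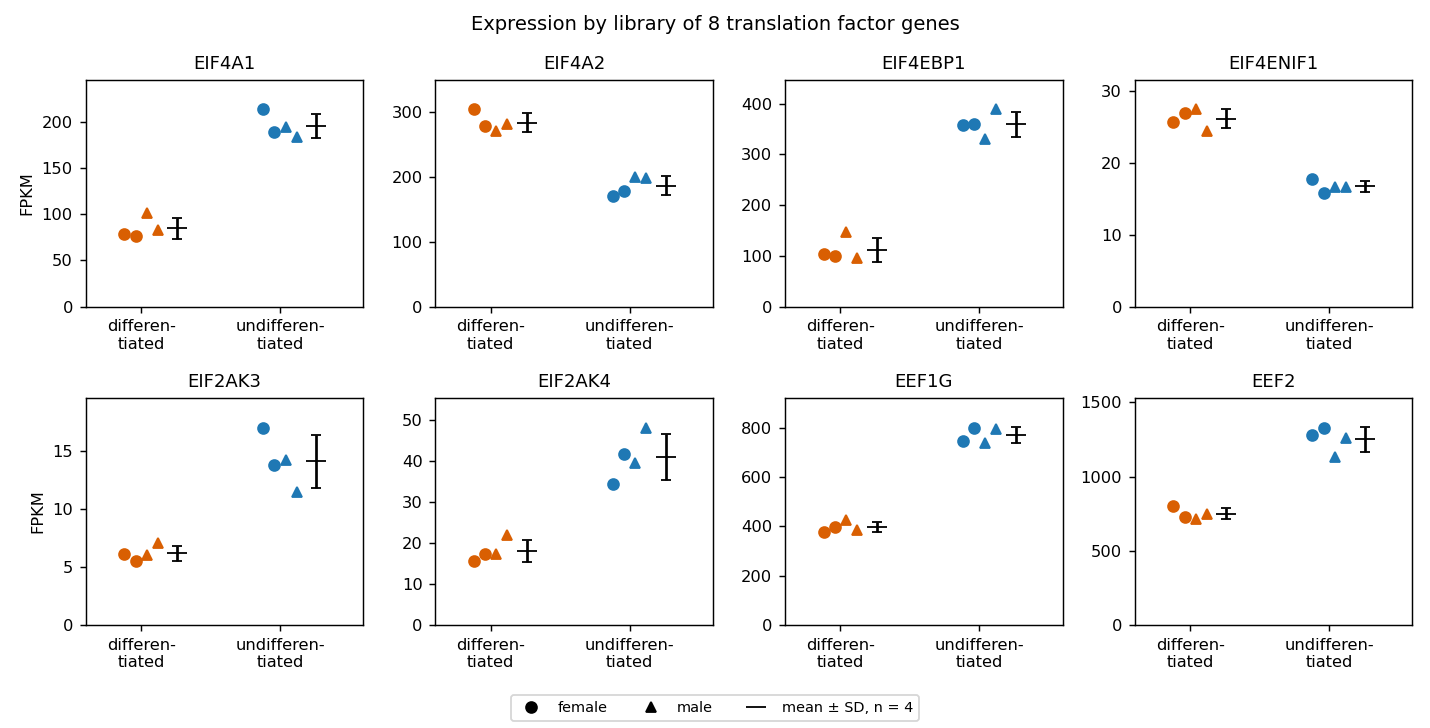
Level (y axis, FPKM, from 0) of 8 factors in each library of differentiated and undifferentiated cells (x axis), with circles for females, triangles for males and the mean ± SD over 4 libraries as bars. EIF4A2 and EIF4ENIF1 lie higher in all 4 differentiated libraries than in any undifferentiated one, and EIF4A1, EIF4EBP1, EIF2AK3, EIF2AK4, EEF1G and EEF2 lie lower.

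The effect of differentiation was then compared between the sexes. In females 16 members fell and 2 rose, beside 23.3% and 12.5% of all tested genes, and in males 14 fell and 2 rose, beside 20.1% and 12.9%. The median log2 fold change was -0.34 in females and -0.23 in males, beside -0.19 and -0.16 over all tested genes. The sign was the same in both sexes for 38 of 44 members, among them all 23 called over both sexes. EIF4EBP1 had -1.81 in females and -1.58 in males, EIF4A1 had -1.37 in females and -1.04 in males, and EIF4A2 had 0.74 in females and 0.47 in males, each called in both sexes.

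A test of the difference between the sexes called none of the 44 members, beside 0.0231% of all tested genes. At an unadjusted p under 0.05, limma named 1 of 44, beside 6.03% of all tested genes. That member was EIF1B, with a log2 fold change of -0.26 in females and 0.51 in males, a difference of -0.77 ± 0.299 (SE, adjusted p = 0.808). It had 142 and 106 FPKM in differentiated and 136 and 159 FPKM in undifferentiated female libraries, and 159 and 118 FPKM in differentiated and 90.2 and 101 FPKM in undifferentiated male libraries.

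Female cells were set against male cells by the same test, which called none of the 44 members, beside 0.0849% of all tested genes, with a lowest adjusted p of 0.501. At an unadjusted p under 0.05, limma named 2 of 44, beside 9.73% of all tested genes, EIF2B3 (-0.35 ± 0.129, female over male) and EIF4E (-0.24 ± 0.0942).

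**Figure D5:**
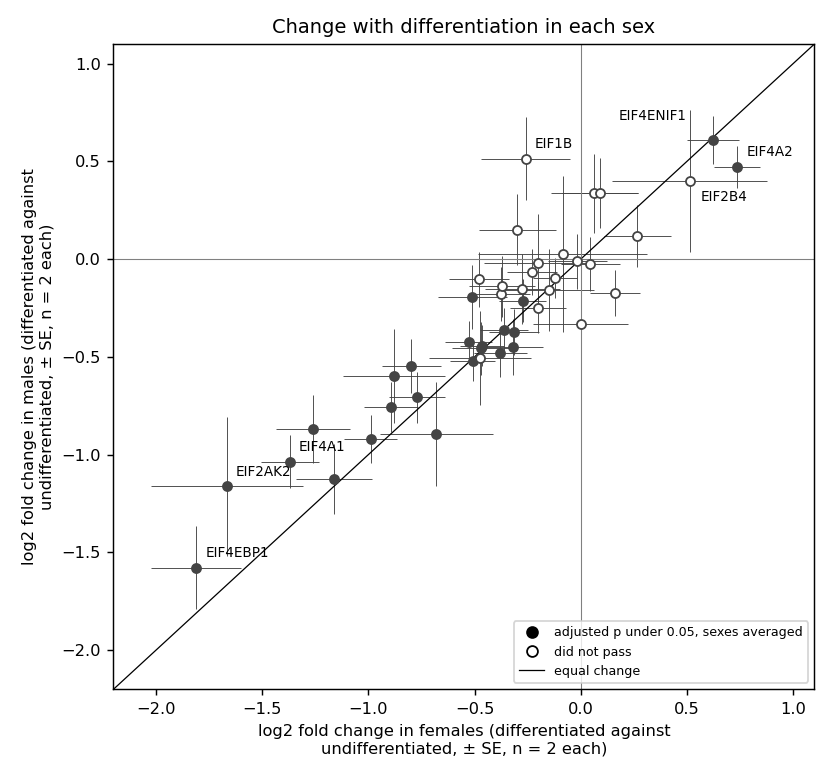
Log2 fold change of the 44 tested factors, differentiated against undifferentiated, in females (x axis) and in males (y axis). Bars show the limma standard error, whose spread was estimated over all 8 libraries and is thus the same in both sexes. Filled points passed an adjusted p under 0.05 over both sexes. Points near the diagonal changed alike in size, and EIF1B, at -0.26 in females and 0.51 in males, lies farthest from it among the labelled points.

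Other genes of the pathway were read from lists of known translation regulators, whose counts stand beside 31.9% fallen and 18.0% risen of all tested genes. Listed genes without a row under their symbol are not counted. Of 20 genes of the mTORC1 and insulin signal to initiation with a row (26 listed), 9 fell and 4 rose. Their median log2 fold change was -0.39, beside -0.18 over all tested genes, and the rises were near the share among all genes. DEPTOR, an inhibitor within mTORC1, averaged 24.8 ± 4.81 FPKM in differentiated cells and 2.88 ± 2.32 FPKM in undifferentiated cells (2.87 ± 0.336, adjusted p = 0.00103). RRAGD, a GTPase of amino acid sensing, also rose (2.55 ± 0.201, adjusted p = 0.000272). RPS6, the ribosomal protein phosphorylated by S6 kinase, fell (-1.22 ± 0.0973, adjusted p = 0.000288), as did SESN3, a sestrin of the leucine and stress response (-1.27 ± 0.129, adjusted p = 0.000625). Their counterparts in the list went otherwise. The S6 kinase RPS6KB1 rose (1.43 ± 0.0915, adjusted p = 0.000134), while RPS6KB2 did not pass (-0.02, adjusted p = 0.905). The sestrin SESN1 rose (0.97 ± 0.113, adjusted p = 0.00103).

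Of 11 listed genes of the integrated stress response, which the eIF2 alpha kinases start, 10 had a row. Of these 8 fell, beside 31.9% of all tested genes, and 1 rose, beside 18.0% (median -0.75). CHAC1 averaged 5.89 ± 4.51 FPKM in differentiated cells and 33.4 ± 5.92 FPKM in undifferentiated cells (-2.50 ± 0.304, adjusted p = 0.00119), and TRIB3 averaged 3.39 ± 2.04 and 17.7 ± 0.969 FPKM in those states (-2.19 ± 0.237, adjusted p = 0.000785). Both are known targets of the factors ATF4 and CHOP. ATF4 itself averaged 87.9 ± 15.5 FPKM in differentiated and 253 ± 15.3 FPKM in undifferentiated cells and fell (-1.53 ± 0.134, adjusted p = 0.000392). DDIT3 (CHOP) fell too (-0.81 ± 0.181, adjusted p = 0.0116). ASNS, asparagine synthetase and likewise a known ATF4 target, rose, at 293 ± 30.6 FPKM in differentiated cells and 136 ± 21.0 FPKM in undifferentiated cells (1.11 ± 0.150, adjusted p = 0.00177).

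Among 10 tested genes of a mixed list (poly(A) binding, the closed loop, helicases and others), 4 fell, beside 31.9% of all tested genes, and 3 rose, beside 18.0% (median -0.04). The fallen were PABPC1, CYFIP1, DENR and the helicase DDX3X, and the risen were PAIP2, PAIP2B and CYFIP2. PABPC1, the main cytoplasmic poly(A)-binding protein, averaged 274 ± 66.7 FPKM in differentiated cells and 733 ± 50.2 FPKM in undifferentiated cells (-1.45 ± 0.109, adjusted p = 0.000240). PAIP2B, an inhibitor of poly(A)-binding protein, rose (1.82 ± 0.143, adjusted p = 0.000272). The paralogs CYFIP1 and CYFIP2, of which CYFIP1 is known to bind eIF4E, were called in opposite directions (-1.09, adjusted p = 0.00762, and 1.01, adjusted p = 0.00485).

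Of 7 termination and ribosome rescue genes 4 fell, beside 31.9% of all tested genes, and none rose, beside 18.0% (median -0.35), among them the release factor GSPT2 (-1.21, adjusted p = 0.00467) and NEMF of ribosome quality control (-0.86, adjusted p = 0.00113). Of 7 tested genes that modify eIF5A and the elongation factors, 2 fell and 1 rose, shares near or below those of all tested genes. DHPS, which starts the hypusine modification of eIF5A, rose (0.65, adjusted p = 0.00649), while DPH5, an enzyme of the diphthamide of eEF2, and METTL13, a methyltransferase of eEF1A, fell (-0.39, adjusted p = 0.0427, and -0.36, adjusted p = 0.0394). Of 2 selenocysteine genes SEPHS2 fell (-1.15, adjusted p = 0.000900). Of 10 mitochondrial translation factors 1 fell and none rose (median -0.15), TUFM, the mitochondrial elongation factor Tu (-0.29, adjusted p = 0.0373).

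Annotation limits how some levels can be read. Of the 47 members 3 lie on unplaced scaffolds. Another row overlaps 19 of them, on the opposite strand in 10. Of these 10, 7 are overlapped by a row of at least 1 FPKM, which the table alone cannot separate since the strand setting of the authors' counting is not given in the sources used here. Rows of small nucleolar RNAs lie inside 7 members, EIF4A1, EIF4A2, EIF3A, EIF4G1, EIF4G2, EEF1B2 and EEF2, and whether such reads entered the level of the host gene was not tested.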

How the data were processed

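RNA-seq libraries of 8 cultured samples (4 differentiated, 4 undifferentiated, 2 of each sex per state) were used as the authors deposited them, in 1 table of FPKM per gene, per the file headers. Per the submitters' processing notes, the build was Sscrofa10.2 and the tools were Cufflinks 2.2.1, TopHat2 2.0.12.1 and cutadapt 1.6, and their settings are not given in the sources used here. Per the labels' protocols, the kit was a stranded one for small amounts of total RNA, while the molecule is labelled polyA RNA. Whole reads could not be recovered, so no count model was used. Relative depth came from the commonest ratios of 5565 low genes (largest misfit 0.0575 on the log2 scale).

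FPKM were taken as log2(FPKM + 1), and genes whose mean reached 1 FPKM were fitted with limma 3.58.1 in R 4.3.3 (1 mean per group, eBayes with trend, 4 residual and 2.09 prior degrees of freedom). Paralog ratios were compared by an exact permutation test over 70 splits. The labels do not say whether same-numbered libraries of the 2 states belong together. Their deviations from the group means correlated weakly (r = 0.113 in females, 0.126 in males, 12603 genes of at least 300 bp). With 2 libraries per group this cannot show a pairing. The main fit and the permutation test took the libraries as unpaired, and a fit with the replicate number as a block was run as an alternative. Other alternatives were a pseudocount of 0.1, no filter or a minimum of 5 FPKM, median-ratio and quantile scaling, short genes left out, no trend, summed rows and each library left out. Members and lists were chosen with earlier results of these data known. Named members were the targets of the ratios, the called members with the largest changes in each role, the most abundant member of each role and the uncalled members with the largest changes, and of each other list the 2 most risen and 2 most fallen called genes. Other members and listed genes that are named in the text were chosen after their values were seen. Ratios of EEF1A2 to EEF1A1 and of EIF5A2 to EIF5A could not be formed.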

Additional observations from a re-analysis of the deposited data

Results flagged for a closer look

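In 3 of 88 state groups of a tested member, 1 library of 4 stood far from the other three, and chance alone flags about 1 group in 20. EIF4EBP1 had 148 FPKM in differentiated male replicate 1, against 96.3 to 104 FPKM in the other differentiated libraries, and that library also had the highest summed proliferation markers of the differentiated cells (74.2 FPKM), whose part was not tested. EEF1B2 had 401 FPKM in differentiated female replicate 2, against 478 to 488 FPKM in the other differentiated libraries. EIF2B5 had 39.9 FPKM in undifferentiated female replicate 2, against 37.6 to 37.7 FPKM in the other undifferentiated libraries.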

How the results depend on the processing

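The number of fallen members lay between 14 (median-ratio scaling) and 23, beside 21 as deposited, and between 17 and 21 when 1 library was left out. The number of risen members was 4 with median-ratio scaling, 3 with quantile normalization (EIF3J added) or without the filter (EIF5 added) and 2 otherwise. Quantile normalization, which raised the median of all genes by 0.11, left 15 fallen. With the replicate block 19 members fell and 2 rose. The block changed no call of a member other than those of EIF2B2, EIF2B5, EIF2A and EIF3L, and the sex comparison could not be fitted with it. For the paralog ratios the block kept the differences at 1.82 (EIF4A2 to EIF4A1) and 1.92 (EIF4EBP2 to EIF4EBP1) but could not pass 0.05 with 4 pairs, while leaving out 1 library gave 1.73 to 1.93 and 1.80 to 2.04. No member was called in the tests between the sexes under any alternative that was run.

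Signs turned only in members without a call. With median-ratio scaling the log2 fold change was positive in EIF2B1 (0.18), EIF2B3 (0.12), EIF3D (0.20), EIF3H (0.10), EIF4G2 (0.0613), EIF4EBP3 (0.138), EIF6 (0.0384), EEF1D (0.0553) and EEF2K (0.0505). With quantile normalization it was positive in EIF2B1 (0.17), EIF2B3 (0.10), EIF3D (0.10), EIF4G2 (0.19), EIF4EBP3 (0.0404) and EEF2K (0.0051). Over the fits that left out 1 library, the value ran between -0.0809 and 0.0532 in EIF2B1, between -0.18 and 0.0322 in EIF2B3, between -0.0457 and 0.0346 in EIF3D, between -0.0600 and 0.0796 in EIF3I, between -0.31 and 0.25 in EIF4EBP3 and between -0.25 and 0.0260 in EEF1D. The cause of these turns was not tested. The unknown depth limits what can be said of the lowest members, EIF5, EIF4EBP3 and the scaffold row of EEF1D.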

Other observations

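The roles made up different shares of the summed FPKM of the members in the 2 states, as a description with no test. The eEF1 members held 15.9% to 16.6% of the sum in differentiated libraries and 19.9% to 21.2% in undifferentiated libraries, and EEF2 held 13.0% to 14.8% and 16.3% to 17.6% in those states. The sum leaves out EF1ALPHA, which averaged 2984 ± 177 FPKM in differentiated and 6120 ± 227 FPKM in undifferentiated cells. EEF1D enters it by the scaffold row alone. All shares here thus hold for the member rows only. The group of eIF4F and its partners, EIF4G2 among them, held 27.4% to 29.3% in differentiated and 24.1% to 25.9% in undifferentiated libraries. The eIF3 members held 19.9% to 23.0% and 17.3% to 18.7% in those states. The eIF2 alpha kinases held 1.12% to 1.28% in differentiated and 1.48% to 1.73% in undifferentiated libraries. None of these 5 ranges overlapped between the states. Nor did those of the eIF4E-binding inhibitors (3.60% to 4.53% in differentiated and 5.79% to 6.19% in undifferentiated libraries). The same held for eIF2 with its exchange factor and for the start codon and subunit joining factors. The ranges of the other initiator tRNA binding factors, EIF6 and EEF2K overlapped. All shares are parts of the same sum and so depend on each other. The 4 members with the highest levels, EEF2, EEF1B2, EIF4G2 and EEF1G, together held 40.1% to 41.7% in differentiated and 44.95% to 46.95% in undifferentiated libraries.

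The members lie on 13 autosomes besides the scaffolds. EIF2B5, EIF4G1 and EIF4A2 lie in this order on chromosome 13 within the stretch from 131370850 to 133979671 (build Sscrofa10.2). Their log2 fold changes were -0.24, -0.45 and 0.60.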
